A study of Mus musculus with 16 samples.

Results

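Gene expression was compared between lung natural killer (NK) cells of tumour-bearing mice given diphtheria toxin (DT) and of such mice given PBS, in the 4 lung DT and 4 lung PBS libraries among the 16 of the series. All mice were FVB/N, carried the genotype Cdh1F/F;Trp53F/F;Foxp3GFP-DTR, and bore orthotopically transplanted KEP mammary tumours, a model that lacks E-cadherin and p53, of 100 mm2. The DT group received 25 ug of toxin at T = 0 and again at T = 7, the unit of T being unstated in the labels, and the PBS group received PBS at those times. In the Foxp3GFP-DTR allele the human toxin receptor is driven by Foxp3, so the toxin kills regulatory T cells (Tregs), and the PBS mice carried the allele too. The 4 groups include no mice that received DT without the allele, so loss of Tregs and other effects of the toxin cannot be told apart. Lungs were digested to single cells and red cells were lysed. Live CD45+ CD3- NKp46+ DX5+ cells were sorted, 5000 to 10000 per sample, and their RNA was made into Smart-seq2 libraries, a full-length cDNA method for small inputs. The other 8 libraries came from NK cells of lymph nodes (LN) under the same treatments and serve here to estimate the spread between replicates and to test whether a change differed between the tissues.

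NK cells are innate lymphocytes that kill transformed or infected cells with granzymes and perforin and secrete interferon gamma. They sense targets through activating and inhibitory receptors, among them the Ly49 family that reads MHC class I, and depend on interleukin 2 and interleukin 15 signalling through STAT5 for survival and division. Tregs restrain NK cells, in part by consuming interleukin 2 and through TGF-beta.

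Lung libraries held between 3929560 counts (PBS 2) and 10744934 counts (PBS 1), and the DT libraries between 6982369 and 8317260. All 8 libraries expressed the gated receptor Ncr1, which encodes NKp46, at 2457 to 5387 CPM (counts per 1000000, with library totals scaled by TMM), and Itga2, which encodes the DX5 antigen, at 64.6 to 160 CPM. Cd3e, the CD3 chain that the gate excluded, was at 0 to 9.76 CPM, while the summed level of 12 T cell markers was 951 to 1477 CPM with PBS and 1105 to 2121 CPM with DT. Foxp3 was at 0.833 CPM or less in every lung library and was too low to be tested, so the depletion of Tregs cannot be read from these sorted cells. Mitochondrially encoded genes took 0.951%, 1.36%, 1.71% and 2.57% of the counts in PBS 1 to 4 and 4.26%, 3.22%, 4.40% and 3.11% in DT 1 to 4. These groups did not overlap (exact permutation test, two-sided p = 0.0286, the smallest that 4 against 4 allows; adjusted over the library measures p = 0.171). Fits below that add this share to the model therefore separate it poorly from DT. The summed level of 14 macrophage and monocyte markers was 1584, 5243, 1004 and 1019 CPM in PBS 1 to 4 and 2866, 11119, 6029 and 617 CPM in DT 1 to 4, highest in DT 2 and lowest in DT 4. It includes Ly6c2, which mature NK cells express too, so it does not measure macrophages and monocytes alone. Ly6c2 was the larger part of it in PBS 3 and PBS 4, and Chil3 in DT 2, with the values of both given below. DT 1 stood apart from the other DT libraries, with 17164 CPM of the nuclear RNA Malat1 against 6813 to 8476 CPM in DT 2 to 4. Its sum over 10 NK gate and identity genes was 57055 CPM against 22960 to 31248 CPM. Most of that sum in DT 1 came from 1 gene, granzyme A (Gzma), whose values are given below, so it does not show that the other gate and identity genes were higher there.

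**Figure D1:**
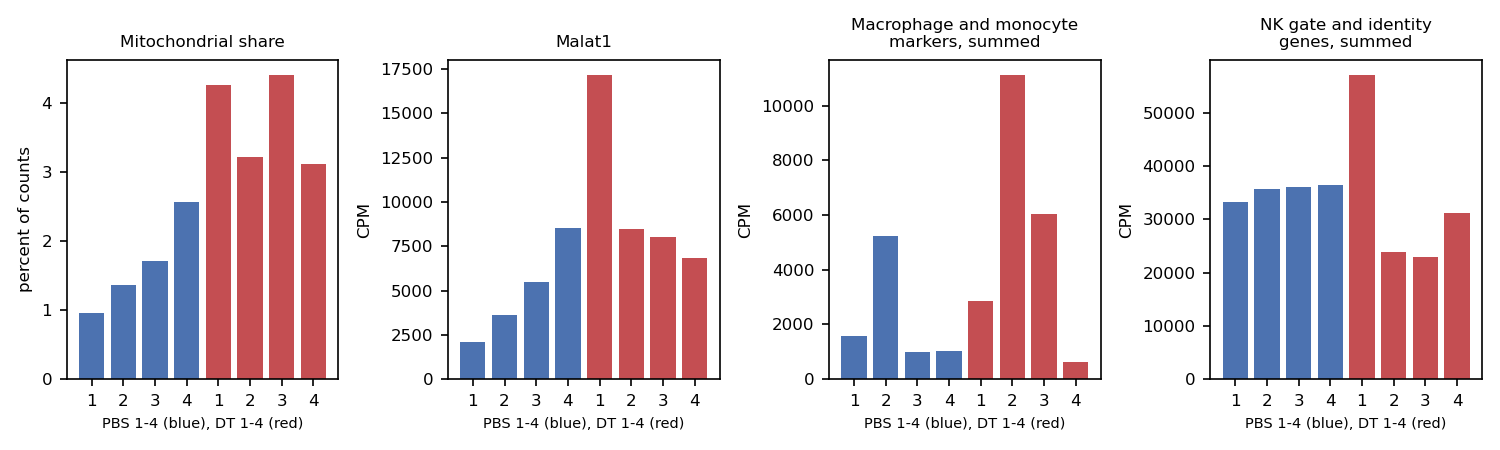
Mitochondrial share (percent of counts), Malat1, summed macrophage and monocyte markers, and summed NK gate and identity genes (CPM) in each lung library, 1 bar per library, PBS in blue and DT in red. The mitochondrial bars of the DT libraries (3.11% to 4.40%) all exceed those of the PBS libraries (0.951% to 2.57%), and DT 1 has the highest Malat1 bar, 17164 CPM.

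The cell division genes Mki67, Top2a, Cit and Knl1 rose with DT in lung NK cells. They were 5.58-fold to 7.94-fold higher with DT, together with the leukocyte inhibitory receptor gene Lilrb4a, the MHC class I gene H2-Q10, and the genes of the very large proteins titin (Ttn) and neuron navigator 2 (Nav2). Zfp882, Parp16, Cym, Dctd, Patj, Cpne4 and Lrrc20 were lower. These 8 higher and 7 lower genes are 0.0574% and 0.0502% of the 13940 genes tested, called at an adjusted p under 0.05 in edgeR's quasi-likelihood test with Benjamini-Hochberg adjustment. At an unadjusted p under 0.05 there were 1068 higher and 984 lower genes among these 13940, and 54.5% of all genes tested had a log2 fold change above 0. The list counts below are to be read against these values. In all 15 called genes the 4 DT libraries lay entirely above or entirely below the 4 PBS libraries, as did 3.35% of the genes tested in the higher and 4.53% in the lower direction. The model estimated its spread over all 16 libraries. Fitted on the 8 lung libraries alone, edgeR called no gene in either direction (smallest adjusted p = 0.131), with 688 higher and 631 lower genes at an unadjusted p under 0.05, and without PBS 1 or without PBS 2 it called no higher gene and 1 lower gene, Zfp882. Leaving out DT 4 gave 49 higher and 80 lower genes, and leaving out DT 1 gave 20 and 24. DESeq2 on the 16 libraries called 275 higher and 181 lower genes, all 15 among them.

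**Figure D2:**
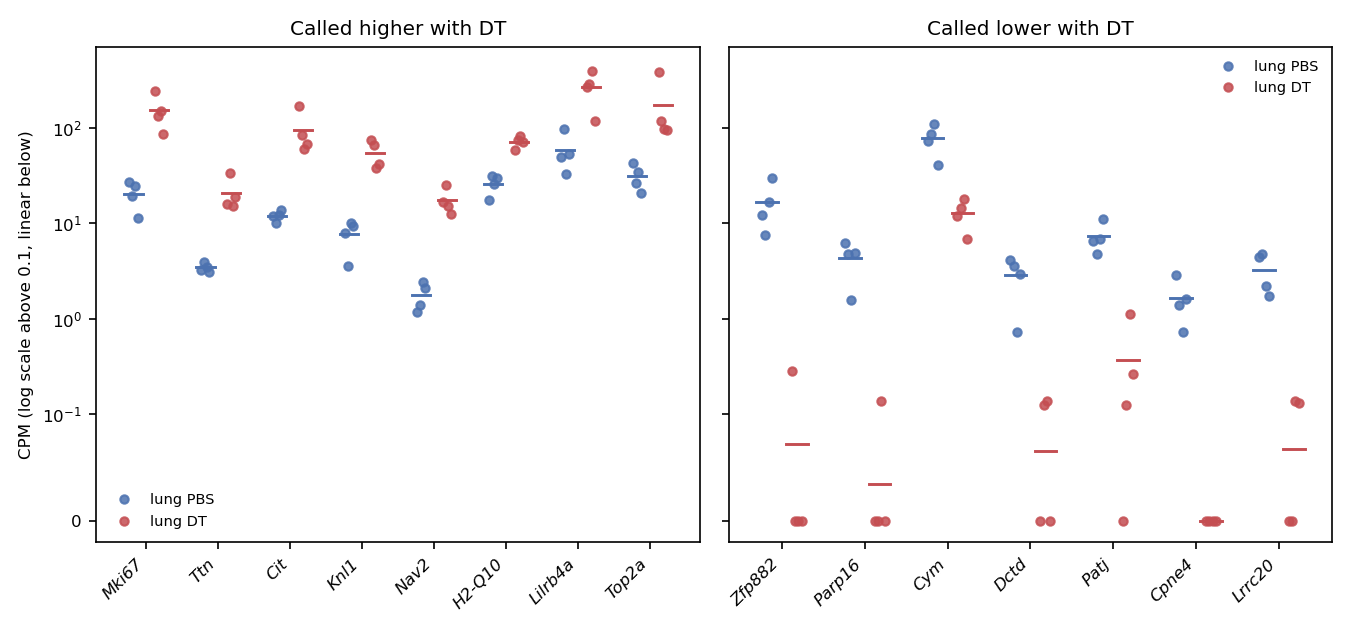
CPM of the 15 called genes in each lung library (points, PBS in blue and DT in red; bars are group means), on an axis that is logarithmic above 0.1 CPM and linear below. In every called gene the 4 DT points lie above or below all 4 PBS points, and most lower genes have DT points at 0.

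The promoters of Mki67, Top2a and Knl1 are shown because many mitotic genes are known to share 2 short elements there, the cell cycle homology region (CHR) and the CCAAT box. Sequences are from RefSeq on GRCm38.p6, 250 bases before to 50 after the gene start of that table, 5′ to 3′ on the gene's strand. Capitals mark each CHR (TTTGAA or TTCGAA) and each CCAAT box (CCAAT), searched on both strands, so TTCAAA and ATTGG are the same elements read from the other strand.
Mki67, chr7:135716330-135716629, minus strand: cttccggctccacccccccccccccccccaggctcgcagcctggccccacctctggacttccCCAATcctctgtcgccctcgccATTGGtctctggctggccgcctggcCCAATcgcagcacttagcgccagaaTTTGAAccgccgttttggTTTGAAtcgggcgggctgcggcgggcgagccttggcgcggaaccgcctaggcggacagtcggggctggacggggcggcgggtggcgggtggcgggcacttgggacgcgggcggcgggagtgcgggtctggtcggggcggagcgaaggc
Top2a, chr11:99024140-99024439, minus strand: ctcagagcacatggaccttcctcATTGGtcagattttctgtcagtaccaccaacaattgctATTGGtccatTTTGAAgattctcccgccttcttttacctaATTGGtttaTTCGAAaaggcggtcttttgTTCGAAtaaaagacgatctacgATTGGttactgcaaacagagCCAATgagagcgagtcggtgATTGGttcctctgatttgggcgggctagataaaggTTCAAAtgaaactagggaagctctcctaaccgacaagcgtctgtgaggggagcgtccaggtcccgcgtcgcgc
Knl1, chr2:119046869-119047168, plus strand: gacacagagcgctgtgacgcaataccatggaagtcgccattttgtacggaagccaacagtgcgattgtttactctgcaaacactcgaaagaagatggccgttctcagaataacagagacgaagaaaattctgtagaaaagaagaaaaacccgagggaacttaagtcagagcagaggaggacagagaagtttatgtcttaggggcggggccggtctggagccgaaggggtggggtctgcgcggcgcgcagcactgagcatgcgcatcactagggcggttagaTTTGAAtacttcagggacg
The Mki67 window held 2 CHR and 3 CCAAT matches, that of Top2a 4 and 6, and that of Knl1 1 CHR and no CCAAT box. The CHR of Knl1 lies after the gene start. No CHR overlapped a CCAAT box in these windows. For Cit the table's window (chr5:115845406-115845705) lies inside the deposited gene span, whose start is at 115845278, so it is not shown and nothing is read from it for Cit. That window stays in the counts below, with no CHR and no CCAAT box. Of the 36 mitosis, kinetochore and cytokinesis genes listed below, 32 had a promoter in the RefSeq table. A CHR was present in 27 of them (84.4%), against 21.7% of all 27025 genes with a promoter there, and a CCAAT box in 24 (75.0%), against 41.1%. Both elements were present in 22 (68.8%), against 9.65% of all genes. In the 31 matched genes of DNA replication and S phase the CHR was at 19.4%, near the share of all genes, and the CCAAT box was in 21 (67.7%), against 41.1% of all genes and 75.0% of the mitosis list. The binding element of E2F factors, searched as TTCCCGC or in the variant forms TTGGCGC and then TTCGCGC and finally TTGCCGC, was in 23 of those 31 (74.2%), against 10.9% of all genes and 7 of the 32 mitosis promoters (21.9%). A CCAAT match overlapped an E2F match in 148 of the 32851 promoter windows of the table, some genes having more than 1, and a CHR match overlapped a CCAAT match in 48. These matches describe the sequences and do not show that a factor bound there.

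Mki67, which encodes the Ki-67 protein of cycling cells (chr7:135689784-135716361), stood at 27.1, 19.1, 24.4 and 11.3 CPM in lung PBS 1 to 4 and at 244, 133, 150 and 86.4 CPM in DT 1 to 4. Every DT library exceeded the highest PBS library, DT 1 the most. Its log2 fold change was 2.90 ± 0.42 (SE, n = 4 per group; edgeR adjusted p = 0.0129). Top2a encodes the topoisomerase that untangles sister chromatids (chr11:98992943-99024189) and was at 42.7, 26.1, 34.0 and 20.9 CPM with PBS and at 382, 118, 96.4 and 94.6 CPM with DT. Without overlap, DT 1 again lay far above the other DT libraries (log2 fold change 2.48 ± 0.47, edgeR adjusted p = 0.0491). Cit encodes citron kinase of the cytokinetic midbody (chr5:115845278-116008947). It rose from 11.9, 9.99, 12.2 and 13.8 CPM to 170, 84.4, 59.4 and 68.1 CPM (log2 fold change 2.99 ± 0.48, edgeR adjusted p = 0.0162). The PBS libraries lay close together, and every DT library was well above them. Knl1 encodes a scaffold of the kinetochore, where spindle fibres attach (chr2:119047119-119105501), and was at 7.84, 3.61, 10.0 and 9.31 CPM with PBS and at 74.5, 65.2, 37.5 and 42.0 CPM with DT (log2 fold change 2.82 ± 0.46, edgeR adjusted p = 0.0162). Here DT 1 and DT 2 were the highest libraries.

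The other genes of mitosis, kinetochore and cytokinesis lay mostly above 0 as well. All 36 listed genes were tested, 34 had a log2 fold change above 0 and 2 below 0, and the median was 1.89 against 0.09 over all genes tested. The 4 above were the ones called by edgeR (16 by DESeq2), 22 were higher and none lower at an unadjusted p under 0.05, and 14 had DT libraries all above the PBS libraries. The 2 below 0, named for that reason, were Aurka (-0.10) and Bub1b (-0.42), neither near the threshold. Without DT 1 the median was 1.18, with 31 of 36 above 0 and the same 4 genes called. Adding the mitochondrial share to the model gave a median of 1.47, with 33 of 36 above 0 and none called. In these bulk libraries more dividing cells and more such RNA per cell cannot be told apart. The adjusted p of the 4 genes ranged over the alternative fits up to 0.429 for Mki67, 0.586 for Knl1, 0.744 for Cit and 0.898 for Top2a, while their log2 fold changes stayed between 1.66 and 3.15. Mki67 was called in 22 of 27 fits, Cit and Knl1 in 20 and Top2a in 14. Leaving out PBS 1 or PBS 2 ended all 4 calls, PBS 3 or PBS 4 those of Cit, Knl1 and Top2a, and any 1 LN PBS library, LN DT 2 or LN DT 3 that of Top2a.

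**Figure D3:**
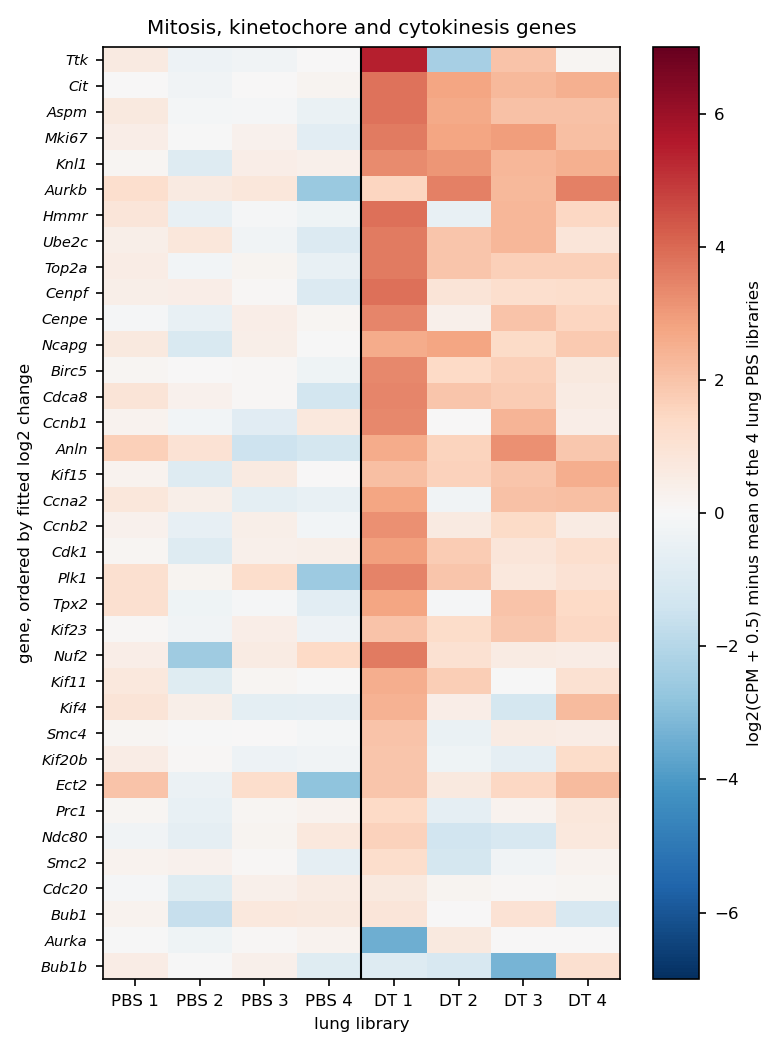
Level of the 36 mitosis, kinetochore and cytokinesis genes in each lung library, as log2(CPM + 0.5) minus the mean of the 4 PBS libraries, ordered by fitted change (red higher, blue lower). Most rows are red in the DT columns, darkest in DT 1, and the lowest rows, such as Aurka and Bub1b, are not.

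Of 38 genes of DNA replication and S phase, all tested, 30 had a log2 fold change above 0 and 8 below it, and the median was 0.78 (0.47 without DT 1). None was called by edgeR and 8 by DESeq2, 14 were higher and none lower at an unadjusted p under 0.05, and 12 were higher without overlap. Tk1, thymidine kinase of the nucleotide salvage route, was at 12.5, 8.05, 14.6 and 11.8 CPM with PBS and at 52.9, 46.5, 35.9 and 38.0 CPM with DT, without overlap (log2 fold change 1.88 ± 0.38, edgeR adjusted p = 0.0672). Dtl, an adaptor for destruction of replication licensing factors, gave 1.88 ± 0.39 (edgeR adjusted p = 0.068), Brca1, of homologous repair, 2.44 ± 0.56 (0.0775), and Pola1, the catalytic subunit of DNA polymerase alpha, 1.34 ± 0.34 (0.119). In Pola1 DT 1 stood at 23.4 CPM, within 1 CPM of the highest PBS library at 22.5 CPM, and DT 2 to 4 at 55.7 to 71.3 CPM. Ncapg2, a subunit of condensin II outside both lists, was at 2.36 to 14.4 CPM with PBS and at 45.8 CPM or more in every DT library (log2 fold change 2.72 ± 0.54, edgeR adjusted p = 0.0623).

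Lilrb4a encodes an inhibitory receptor of the leukocyte immunoglobulin-like family that is found on NK, mast and myeloid cells. It was at 49.2, 96.6, 33.1 and 53.7 CPM in PBS 1 to 4 and at 267, 288, 396 and 119 CPM in DT 1 to 4 (log2 fold change 2.21 ± 0.40, edgeR adjusted p = 0.0342). The groups did not overlap, and DT 4 was nearest to PBS. PBS 2 and DT 4 were also the highest PBS and the lowest DT library in summed macrophage and monocyte markers, whose part in the result was not tested. In DT 4 that sum was 617 CPM, below every PBS library, and Lilrb4a was at 119 CPM. Because the sum includes Ly6c2 of NK cells, nothing about the source of Lilrb4a is read from this. Lilrb4a was called in 12 of 27 alternative fits, and leaving out any 1 of the lung or LN PBS libraries, or number 2 or 3 of either DT group, ended the call. The deposited gene identifier (chr10:51480679-51496613) spans 2 neighbouring genes in GENCODE M21, Lilr4b and Lilrb4a, and 96.2% of the 50-base windows of its transcripts are shared with them, so these counts cannot separate the 2.

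Among 17 tested inhibitory and checkpoint receptors, 12 had a positive and 5 a negative log2 fold change, and the median was 0.44. Without DT 1 these were 9, 8 and 0.22, without PBS 3 the median was 0.21, and with the mitochondrial share in the model 0.11. Lilrb4a was the one called, and 2 were higher and 1 lower at an unadjusted p under 0.05. Cd300lf, a CD300 family receptor, gave 0.56 ± 0.24 (edgeR adjusted p = 0.30), Cd96, which binds the nectin-like molecule CD155, -0.75 ± 0.32 (0.293), and Havcr2, which encodes TIM-3, 2.49 ± 1.34 (0.398). Tigit was at 80.9 to 172 CPM with PBS and at 324, 132, 84.6 and 312 CPM in DT 1 to 4, overlapping the PBS libraries (log2 fold change 0.90 ± 0.50, edgeR adjusted p = 0.405). Klrg1, an inhibitory receptor of mature NK cells, was at 965 to 1168 CPM with PBS and at 1591, 616, 588 and 953 CPM with DT (-0.19 ± 0.30, edgeR adjusted p = 0.799). Lag3 stayed at 15.4 CPM or less and Pdcd1, which encodes PD-1, at 7.76 CPM or less in every lung library.

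H2-Q10, a nonclassical MHC class I gene with a secreted product (chr17:35470089-35474563), was also among the called higher genes. It stood at 17.6, 31.4, 25.5 and 29.7 CPM in PBS 1 to 4 and at 58.8, 73.8, 82.4 and 70.7 CPM in DT 1 to 4, with narrow groups that did not overlap (log2 fold change 1.46 ± 0.26, edgeR adjusted p = 0.0342). It was called in 10 of 27 alternative fits, and total counts without TMM, no gene filter, or leaving out any 1 of the lung or LN PBS libraries or number 2 or 3 of either DT group ended the call, with adjusted p up to 0.429 over all fits. Of its 50-base transcript windows 19.7% occur in other genes, most of them other class I genes, and FVB/N mice carry another MHC haplotype than the reference strain, so its counts are uncertain to that extent. Of the 30 genes of interferon gamma response and antigen presentation, all tested, 19 had a positive and 11 a negative log2 fold change, the median was 0.16 (0.01 without PBS 4), H2-Q10 was the one called, and 7 were higher and none lower at an unadjusted p under 0.05. Nlrc5, the transactivator of class I genes, was at 71.7 to 99.0 CPM with PBS and at 147, 269, 158 and 171 CPM with DT, without overlap (1.14 ± 0.28, edgeR adjusted p = 0.104). The classical class I genes H2-K1 and H2-D1 gave -0.17 ± 0.29 and -0.50 ± 0.33 (edgeR adjusted p = 0.814 and 0.50). Iigp1, an interferon-inducible GTPase, was at 0.248 to 2.18 CPM with PBS and at 64.7, 25.2, 42.2 and 0.393 CPM with DT, so DT 4 lay among the PBS libraries (4.96 ± 0.98, edgeR adjusted p = 0.0623). Ly6a, which encodes Sca-1, showed the same split, at 104, 110 and 126 CPM in DT 1 to 3 and 4.72 CPM in DT 4 against 3.28 to 21.4 CPM with PBS (3.25 ± 0.84, edgeR adjusted p = 0.121). DT 4 was also the DT library with the lowest macrophage and monocyte sum, and the part of those cells in these 2 genes was not tested. Without DT 4, Iigp1, Ly6a, Gbp8 and H2-Q10 were called in this list.

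Of 25 type I interferon-stimulated genes 20 had a positive log2 fold change, the median was 0.60 (0.33 without DT 2), and none was called by edgeR, with 5 higher and 1 lower at an unadjusted p under 0.05. Usp18, which removes ISG15 from proteins, was at 12.4 to 16.1 CPM with PBS and at 43.5, 46.2 and 40.3 CPM in DT 1, 3 and 4, with DT 2 lower but above every PBS library (1.35 ± 0.38, edgeR adjusted p = 0.156). Oas1a, a sensor of double-stranded RNA, gave 1.90 ± 0.56 (edgeR adjusted p = 0.164), and Ifit1, at 3.72 CPM or less everywhere, -3.67 ± 0.85 (0.0861).

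Ttn and Nav2 were the other called genes above PBS. Ttn encodes titin, the spring of muscle sarcomeres (chr2:76703980-76982547), and was at 3.28, 3.89, 3.51 and 3.10 CPM with PBS and at 15.8, 33.8, 15.1 and 18.9 CPM with DT (log2 fold change 2.60 ± 0.39, edgeR adjusted p = 0.0158). The PBS libraries nearly coincided, and DT 2 was the highest. Nav2 (chr7:48908716-49610090) was at 1.19, 1.39, 2.42 and 2.11 CPM with PBS and at 16.8, 25.2 and 12.4 CPM in DT 1, 2 and 4, with DT 3 between DT 4 and DT 1 (3.27 ± 0.53, edgeR adjusted p = 0.0162). Both genes span long stretches of the genome. By the coordinates given here, so do the called higher genes Cit and Knl1 and the called lower genes Cpne4, Patj, Lrrc20 and Dctd. Among the 2889 tested protein-coding genes that span at least 52565 bases the median log2 fold change was 0.13 and 56.8% lay above 0. The medians were -0.03, -0.04 and -0.06 in 3 equal groups of shorter protein-coding genes. Ttn was called in 20 and Nav2 in 19 of 27 alternative fits, and both lost the call when any 1 of the 4 lung PBS libraries was left out. Upp1, uridine phosphorylase, was next above PBS, at 0.846 to 5.21 CPM with PBS and at 43.3, 21.4, 42.8 and 6.03 CPM with DT (3.27 ± 0.64, edgeR adjusted p = 0.0623).

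Cym and 6 genes of low count made up the called genes that fell. Cym encodes chymosin, an aspartic protease known from the stomach of young mammals (chr3:107211293-107221732), and it fell from 73.5, 86.3, 110 and 40.7 CPM in PBS 1 to 4 to 11.8, 14.5, 18.1 and 6.81 CPM in DT 1 to 4. Replicate 4 was the lowest library of each group, and the groups did not overlap (log2 fold change -2.60 ± 0.41, edgeR adjusted p = 0.0162). Zfp882 encodes a zinc finger protein (chr8:71908608-71916354). It was at 12.1, 7.49, 16.7 and 29.9 CPM with PBS and at 0.287, 0, 0 and 0 CPM with DT, that is 528 counts against 2. The ratio of PBS to DT over the group totals was 262, with an exact 95% interval of 72.3 to 2172 that covers counting error only (log2 fold change -7.63 ± 0.96, edgeR adjusted p = 0.00419). Zfp882 was the gene with the smallest p, and its call was lost in 1 of 27 alternative fits, that on the lung libraries alone (edgeR adjusted p = 0.158). Parp16, a mono-ADP-ribosyltransferase of the endoplasmic reticulum membrane (chr9:65195353-65239224), was at 6.26, 4.72, 1.57 and 4.84 CPM with PBS and at 0, 0, 0.138 and 0 CPM with DT. Its 132 counts against 1 gave a ratio of 131 (interval 23.1 to 5219; edgeR adjusted p = 0.0162).

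Dctd encodes dCMP deaminase, which makes the dUMP that thymidylate synthase turns into dTMP (chr8:48099092-48153233). It was at 4.17, 3.61, 0.725 and 2.98 CPM with PBS and at 0, 0.125, 0.138 and 0 CPM with DT, 85 counts against 2 and a ratio of 42.2 (interval 11.3 to 354; edgeR adjusted p = 0.0312). Tyms, thymidylate synthase itself, lay the other way at 1.55 ± 0.52 without passing the test (edgeR adjusted p = 0.205), a gene named here after its value was seen. Patj, a scaffold of the Crumbs polarity complex (chr4:98395785-98719603), was at 6.55, 4.72, 6.77 and 11.2 CPM with PBS and at 0, 0.125, 1.11 and 0.262 CPM with DT (-4.24 ± 0.75, edgeR adjusted p = 0.0327). Cpne4, a copine that binds membranes in response to calcium (chr9:104547286-105034544), was at 2.88, 1.39, 0.725 and 1.61 CPM with PBS and had no count in any DT library. Against a floor of 3 counts over the DT group it was at least 17.6-fold lower (edgeR adjusted p = 0.0327). Lrrc20, a leucine-rich repeat protein gene (chr10:61475833-61582226), went from 4.47, 4.72, 2.18 and 1.74 CPM to 0, 0, 0.138 and 0.131 CPM, 94 counts against 2 and a ratio of 46.7 (interval 12.6 to 391; edgeR adjusted p = 0.0491). Of 27 alternative fits Cym was called in 22, Parp16 in 21, Patj in 13 and Lrrc20 in 6, and of the 26 that tested them Dctd was called in 15 and Cpne4 in 13. Leaving out PBS 1 or PBS 2 ended the call of each of these 6 genes, and Lrrc20 lost it in every fit that left out 1 library except those without lung DT 4 or LN DT 1. Next below PBS, without passing, were Angpt1, which encodes an angiopoietin, at 3.61 to 14.7 CPM with PBS and 0.786 CPM or less with DT (edgeR adjusted p = 0.0565), Cyp20a1, Acat1 and Rrp15 (edgeR adjusted p = 0.0623, 0.068 and 0.068). Genes with at least 1 count in every PBS library and none in any DT library numbered 66 in lung, against 11 the other way round, and in LN 9 against 111. At least 1 count was found for 16044 to 17845 genes in the PBS libraries and for 14032 to 16949 in the DT libraries, an overlapping range (exact permutation test, two-sided p = 0.114), and the part of this difference in the genes that fell to or near 0 was not tested.

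Maturation and trafficking genes lay mostly below 0 without passing the test. In the 2889 tested protein-coding genes of highest mean CPM in lung the median was -0.12 (-0.28 without DT 1), with 40.5% above 0. In the 2889 of lowest mean CPM it was 0.29, with 59.1% above 0. The part of abundance in these lists and in those of the following paragraphs was not tested. Of 16 mature NK cell markers 13 were below 0 with a median of -0.55 (-0.36 without PBS 1), none was called, and 2 were lower at an unadjusted p under 0.05. Ly6c2, a surface antigen of mature NK cells and monocytes, was at 655, 1106, 659 and 562 CPM with PBS and at 230, 242, 287 and 315 CPM with DT, without overlap (-1.47 ± 0.30, edgeR adjusted p = 0.068). Itgb2, the beta-2 integrin chain, gave -0.90 ± 0.34 (edgeR adjusted p = 0.242), and Tbx21, the transcription factor T-bet, -0.93 ± 0.54 (0.440). Adding the mitochondrial share to the model gave this list a median of -0.05, with 9 of 16 below 0. Of 18 immature markers 13 were below 0 as well (median -0.40), 2 were higher and 5 lower at an unadjusted p under 0.05, and none was called. Ltb, lymphotoxin beta, was at 67.3 to 115 CPM with PBS and at 29.2 to 60.4 CPM with DT, without overlap (-1.06 ± 0.29, edgeR adjusted p = 0.133), and Ctla2a, a cysteine protease inhibitor, lay above PBS without overlap, at 132 to 216 against 297 to 768 CPM (1.17 ± 0.38, edgeR adjusted p = 0.189). Itgam and Cd27, the pair of surface antigens that stage mouse NK cells, gave -0.10 ± 0.37 and -0.06 ± 0.26 (edgeR adjusted p = 0.914 and 0.925). Of 23 trafficking and adhesion genes 15 were below 0 (median -0.35, and -0.58 to 0.07 over the alternative fits), 3 were higher and 4 lower at an unadjusted p under 0.05. Selplg, the P-selectin ligand, was at 1996 to 2987 CPM with PBS and at 476 to 1726 CPM with DT, without overlap (-1.15 ± 0.41, edgeR adjusted p = 0.226). Of 14 tested markers of tissue residency and ILC1 8 were above 0 (median 0.23, and -0.43 to 0.41 over the alternative fits), among them Rgs1, a regulator of chemokine receptor signalling (1.18 ± 0.37, edgeR adjusted p = 0.180).

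Apart from Lilrb4a, no listed receptor or adaptor of target recognition was called by edgeR. Of 20 activating receptors and adaptors 15 were below 0 (median -0.20; without DT 1, 19 and -0.47), 4 were lower and none higher at an unadjusted p under 0.05, and none was called. The shared signalling chains Fcer1g, Cd247 and Hcst gave -0.80 ± 0.27, -0.79 ± 0.28 and -0.71 ± 0.26 (edgeR adjusted p = 0.205, 0.225 and 0.226), and Ncr1 -0.50 ± 0.25 (0.353). Of 18 Ly49 and NKR-P1 receptor genes 13 were above 0 (median 0.19, and -0.22 without DT 1), with 2 higher and 3 lower at an unadjusted p under 0.05. Klrb1c, which encodes NK1.1, was at 1258, 856, 890 and 802 CPM with PBS and at 511, 325, 420 and 525 CPM with DT, without overlap (-1.09 ± 0.28, edgeR adjusted p = 0.122).

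Effector genes were not called in either direction. Of 17 tested genes of cytotoxic granules and death ligands 12 were below 0 with a median of -0.38, and none was past an unadjusted p of 0.05. Gzma, granzyme A, was at 14643, 20918, 17331 and 18461 CPM in PBS 1 to 4 and at 38722, 11561, 10702 and 13531 CPM in DT 1 to 4. DT 1 was the highest of the 8 libraries and the other DT libraries were the lowest 3, and the log2 fold change was 0.06 ± 0.43 with DT 1 and -0.63 without it (edgeR adjusted p = 0.959 and 0.351). Prf1, perforin, was at 2173 to 3664 CPM with PBS and at 511, 1683, 1498 and 2962 CPM with DT (-0.81 ± 0.52, edgeR adjusted p = 0.488), and Gzmb gave -0.40 ± 0.31 (0.572). Ifng was at 170 to 449 CPM with PBS and at 1229, 126, 227 and 287 CPM with DT, and its log2 fold change was 0.73 ± 0.51 with DT 1 and -0.46 without it (edgeR adjusted p = 0.521 and 0.464). Of 16 cytokine and chemokine genes 8 were above and 8 below 0 (median -0.06), 4 were higher and 3 lower at an unadjusted p under 0.05, and none was called. Lta, lymphotoxin alpha, was at 0.121 to 2.36 CPM with PBS and at 0 in all 4 DT libraries (edgeR adjusted p = 0.068). Tgfb1 gave 1.14 ± 0.41 (edgeR adjusted p = 0.228). Il10 was at 3.61 CPM or less with PBS and at 56.2, 5.26, 0 and 6.55 CPM with DT (3.05 ± 1.32, edgeR adjusted p = 0.310).

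Of 24 genes of cytokine receptors and STAT5 signalling 11 were above and 13 below 0 (median -0.07), with 6 higher and 2 lower at an unadjusted p under 0.05 and none called. Stat5a was at 37.5, 64.1, 55.1 and 63.8 CPM with PBS and at 98.6, 137, 126 and 79.1 CPM with DT, without overlap (1.00 ± 0.25, edgeR adjusted p = 0.110). Il2ra, the high-affinity interleukin 2 receptor chain, was at 0.869 to 3.89 CPM with PBS and at 10.0, 3.38, 6.51 and 4.98 CPM with DT (1.69 ± 0.52, edgeR adjusted p = 0.175), and Il15ra gave 1.05 ± 0.33 (0.181). Ifngr1, the interferon gamma receptor chain, lay below PBS without overlap, at 2237 to 3617 against 947 to 2179 CPM (-1.14 ± 0.36, edgeR adjusted p = 0.189).

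None of the 24 tested transcription factors of NK cells, 25 immediate early and stress genes, 15 TGF-beta pathway genes, 18 glycolysis genes, 25 nuclear genes of oxidative phosphorylation, 23 genes of MYC and ribosome biogenesis or 21 genes of lipid synthesis was called by edgeR. At an unadjusted p under 0.05 they held, in that order, 2, 0, 2, 0, 0, 0 and 0 higher and 4, 0, 1, 3, 7, 2 and 1 lower genes. Over all 13940 genes tested, 1068 were higher and 984 lower at that threshold. Gata3, a regulator of NK cell and innate lymphoid development, gave -1.05 ± 0.35 (edgeR adjusted p = 0.205), and Eomes, which with T-bet specifies NK cells, -0.57 ± 0.25 (0.312). In glycolysis 14 of 18 genes were below 0 (median -0.45), with the glucose transporter Slc2a3 at -1.36 ± 0.41 (edgeR adjusted p = 0.177) and the enolase gene Eno1 at -1.01 ± 0.36 (0.224). Adding the mitochondrial share to the model turned that median to 0.46, so its direction is not settled. That share did not overlap between the lung groups, so this fit separates it poorly from DT. In nuclear oxidative phosphorylation 18 of 25 were below 0 (median -0.18; without DT 1, 21 and -0.49), with the ATP synthase subunit genes Atp5b at -1.01 ± 0.31 and Atp5a1 at -0.90 ± 0.30 (edgeR adjusted p = 0.179 and 0.201). All 10 tested mitochondrially encoded genes lay above 0 (median 1.01), 6 of them at an unadjusted p under 0.05 and none called, among them mt-Nd5, a subunit of complex I, at 1.34 ± 0.37 (edgeR adjusted p = 0.139). Cytochrome b, mt-Cytb, was at 1423 to 6787 CPM with PBS and at 21697, 3370, 5825 and 7873 CPM with DT, with DT 1 far above the rest (1.34 ± 0.69, edgeR adjusted p = 0.373).

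**Figure D4:**
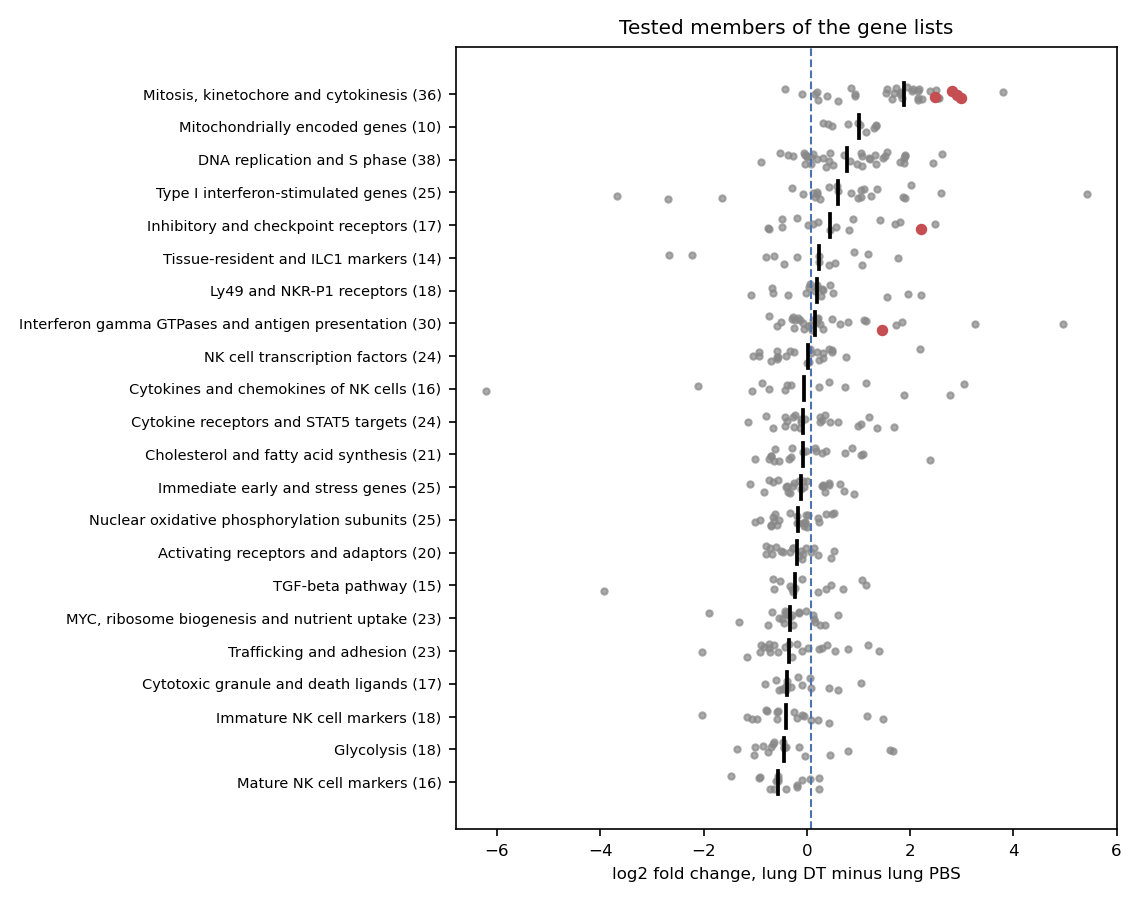
Log2 fold change, lung DT minus lung PBS, of the tested members of 22 gene lists (points, red where called at an adjusted p under 0.05; number of tested members in brackets). Black ticks are list medians and the dashed line is the median of all tested genes, 0.09; the mitosis list has the highest median, 1.89, and mature NK cell markers the lowest, -0.55.

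The change with DT was then compared with that in LN NK cells by the interaction term of the same model. It differed at an adjusted p under 0.05 for 1 gene, Zfp882 (0.00717% of 13940 tested; 586 at an unadjusted p under 0.05). Zfp882 in LN was at 18.4, 12.7, 9.05 and 4.19 CPM with PBS and at 20.2, 19.4, 11.9 and 10.0 CPM with DT. The LN groups overlapped at 0.47 ± 0.65, and the lung change minus the LN change was -8.10 ± 1.14 on the log2 scale (edgeR adjusted p = 0.0215). This call was lost in 9 of the 16 fits that each left out 1 library (lung PBS 3 or 4, lung DT 2 or 4, LN PBS 2, 3 or 4, LN DT 1 or 2), with an edgeR adjusted p of 0.0554 to 0.101 and a difference of -7.65 to -8.18 in those. It was also lost with the replicate block in edgeR (adjusted p = 0.323), with a block shared by the tissues (0.131) and in limma-voom (0.0685). Lung DT and LN DT libraries of the same number deviated together in all 4 pairs (correlations 0.184 to 0.412), which the main model does not take into account, while those of lung PBS and LN PBS ranged from -0.0303 to 0.191. For lung DT 2 and DT 3 the same-number correlations, 0.194 and 0.23, were close to the highest with another number, 0.181 and 0.229. Parp16, Dctd, Patj and Lrrc20 had LN changes of -0.72 ± 0.71, 0.05 ± 0.66, -0.07 ± 0.61 and -0.13 ± 0.76, and their differences between tissues did not pass (edgeR adjusted p = 0.316, 0.316, 0.372 and 0.460). The 8 called higher genes had LN log2 fold changes from 0.68 (H2-Q10) to 2.69 (Ttn), and Cym had -2.02 ± 0.41. The difference between tissues for Mki67 was 0.96 ± 0.55 and for Lilrb4a -0.42 ± 0.54, both with an edgeR adjusted p of 1.0. A p that misses the threshold does not show that the tissues responded alike. Gsto1, a glutathione transferase, had the smallest p among genes with a higher change in lung than in LN. Its lung change minus LN change was 2.06 ± 0.45 without passing (edgeR adjusted p = 0.318), followed by Tmem106a at 1.99 ± 0.56 (0.785). The lung change of Gsto1 itself was 0.4 to 0.88 over the alternative fits, and none of them called it. The differences between tissues of Cbfa2t3, Tmem51 and Fgd4 were 2.52 ± 0.71, 4.99 ± 1.43 and 6.71 ± 2.03 (edgeR adjusted p = 0.785, 0.785 and 0.806). In lung all 3 were highest in DT 2 and DT 3, the libraries with the highest macrophage and monocyte sums, whose part in those values was not tested.

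**Figure D5:**
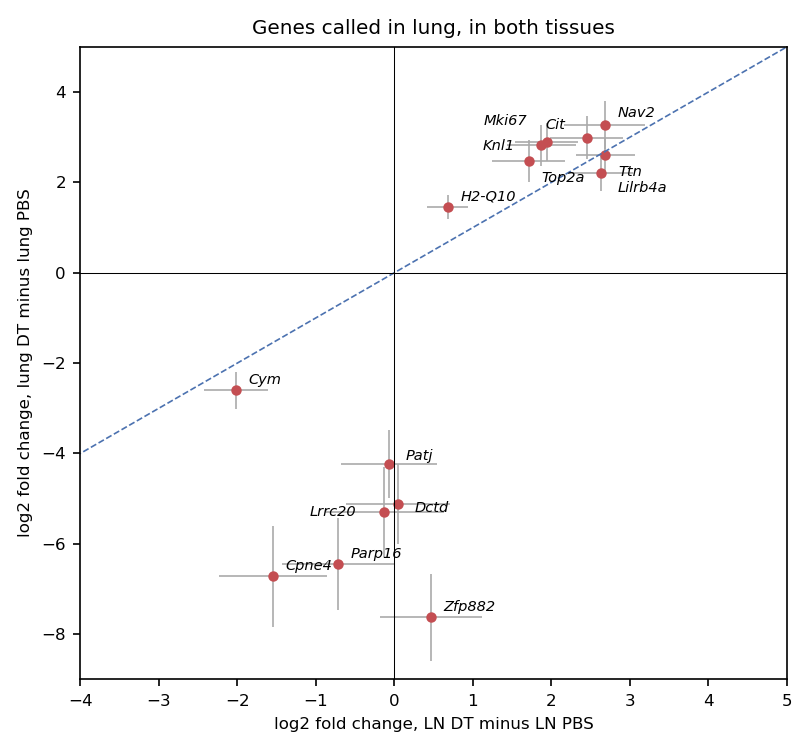
Log2 fold change with DT in LN (horizontal axis) and in lung (vertical axis) of the 15 genes called in lung, with bars of 1 SE and a dashed line of equal change. The 8 higher genes and Cym lie near the line, and Zfp882, at 0.47 in LN and -7.63 in lung, lies farthest from it.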

How the data were processed

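Raw read counts per gene were deposited for 16 libraries. Per the submitters' processing notes, HISAT2, HTSeq and build GRCm38 were used; versions, annotation release and strand setting are not given in the sources used, so overlapping antisense genes cannot be separated. Counts were tested with edgeR 4.0.16 (R 4.3.3): TMM scaling, filterByExpr by group (minimum count 10, minimum total 15; 13940 of 49671 genes kept), robust quasi-likelihood F tests on 4 group means, 12 residual degrees of freedom, and Benjamini-Hochberg adjustment over all genes tested; a call is an adjusted p under 0.05. The common biological coefficient of variation was 0.621. DESeq2 1.42.0 and limma 3.58.1 were alternatives, and the code was tested on simulated data. The labels describe 4 biological replicates per group and tie no lung library to a mouse, so p-values measure the spread between these samples. No 2 lung libraries of a group agreed within sampling noise.

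Genes were named by rule: every called gene; genes of smallest p with at least 10 CPM up to 12 per direction, given as not passing; the 4 members of smallest p of each list; and fixed markers. Genes outside it, including Gbp8, H2-K1, H2-D1, Tyms, Aurka, Bub1b and markers of other cells, were chosen after their values were seen. The members and lists were chosen with earlier results of these data known. Of 596 listed symbols 594 were found; single-gene results of 2 of them are not reported here, although list counts and medians include them. Exact intervals are at 95% and cover counting error only, and floors are 3 counts.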

Additional observations from a re-analysis of the deposited data

Results flagged for a closer look

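For 5 quantities a single lung DT library lay farther from the other 3 than Dixon's 95% limit for 4 samples allows. DT 1 had 15.4% of its counts in its 10 most abundant genes, against 8.98% to 9.75% in DT 2 to 4, and Malat1 at 17164 CPM, against 6813 to 8476 CPM. Top2a was at 382 CPM in DT 1 against 94.6 to 118 CPM in the other DT libraries, and without DT 1 it was still called. Zfp882 had 0.287 CPM in DT 1 and 0 in the others, and Parp16 0.138 CPM in DT 3 and 0 in the others, which rests on 2 counts and 1 count. Of the groups checked, 42 in all, chance flags about 1 in 20. The change of Zfp882 with DT differed between lung and LN by -8.10 on the log2 scale, by the interaction test (edgeR adjusted p = 0.0215).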

How the results depend on the processing

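Counts are given as genes higher, lower and different between tissues, against 8, 7 and 1. The lung libraries alone gave 0 and 0 (the interaction needs both tissues), the mitochondrial share as a covariate 0 and 1, DESeq2 275, 181 and 19, limma-voom 251, 184 and 0, leaving out both DT libraries numbered 1 169 and 305, and no gene filter 12 lower. Leaving out single libraries gave 0 to 49 higher, 1 to 80 lower and 0 to 3 different genes; the 0 higher were without PBS 1 or PBS 2, the 49 and 80 without DT 4. DESeq2 shared all 15 calls, limma-voom 10. The cause of these differences was not tested, except that fewer samples enter some fits.

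Replicate numbers did not pair PBS with DT lung libraries (same-number correlations of deviations -0.127 to 0.207), nor lung with LN in the PBS groups, while every lung DT library correlated best with the LN DT library of its number (0.184 to 0.412), a hint from the data and not the design. The margin over the next best number was small for DT 2 (0.194 against 0.181) and DT 3 (0.23 against 0.229). The replicate block gave 1 higher, 2 lower and 0 different genes, a block shared by the tissues 0 different, and Gzma -0.18 under the block.

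The medians of 11 of the 22 gene lists changed sign under at least 1 alternative, that of the mitosis list under none (1.16 to 2.14). Signs also turned for single genes that were not called. The mitochondrial share did not overlap between the lung groups, so a fit with it as a covariate separates it poorly from DT. With the mitochondrial share as a covariate log2 fold changes were 0.51 for Prf1, 0.34 for Tbx21, 0.05 for Jund, 0.01 for Eno1, 0.17 for Hif1a, 0.02 for Gzmb, -0.13 for mt-Co1, -0.47 for Gzma, -0.42 for Malat1 and -0.46 for mt-Cytb. Without both DT libraries numbered 1 and under limma-voom they were -0.16 and -0.04 for Rab27a, 0.02 and 0.13 for Itga2, -0.55 and -0.24 for Cd3e, -0.64 and -0.48 for Gzma, -0.48 and -0.29 for Ifng, and 0.0 and 0.14 for Cd27; limma-voom gave -0.61 for Il10, and total counts alone 0.02 for Cd27. Leaving out single libraries in turn, the log2 fold changes ran from -0.14 to 1.34 for Rab27a, -0.33 to 0.11 for Itga2, -0.54 to 2.09 for Cd3e, -0.63 to 0.25 for Gzma, -0.46 to 1.03 for Ifng, -0.35 to 0.05 for Itgam and -0.24 to 0.08 for Cd27; DT minus PBS ran from -1674084 to 597707 in total counts and from -0.27 to 1.87 percentage points in the share of the 10 most abundant genes. Genes near 0 in 1 group are limited by counts of 1 to 3 in a library.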

Other observations

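Summed marker genes of other immune and tissue cells varied among the sorted lung libraries. Some of the marker lists hold genes that NK cells express, such as Ly6c2 and Klrg1, so these sums do not count cells. The summed level of 7 platelet markers was 70.3 to 125 CPM with PBS and 24.0 to 69.1 CPM with DT, the one list of other cell types whose groups did not overlap. Dendritic cell markers summed to 9092 CPM in PBS 2 and to 286 to 4707 CPM in the other 7 lung libraries. Chil3, a chitinase-like protein of lung macrophages, was chosen after its values were seen. It was at 8.57 to 171 CPM with PBS and at 1289, 6738, 2082 and 156 CPM in DT 1 to 4. The groups overlapped (log2 fold change 5.32 ± 1.15, edgeR adjusted p = 0.0742). This rise was the largest among the 14 macrophage and monocyte markers, all tested. By fitted change 6 of the 14 fell with DT and 8 rose, and edgeR called none. Their median log2 fold change was 0.33 and the lowest was -2.16, so Chil3 does not stand for the list. Plasma cell markers summed to 231 to 453 CPM in the PBS and 280 to 324 CPM in the DT libraries of lung, and to 279 to 370 and 761 to 2615 CPM in those of LN. Cd8b1, Elane, Camp, Sftpd, Nkx2-1 and Col3a1 had no count in any lung library. Xist, the RNA of the inactive X chromosome, was at 231 to 446 CPM with PBS and at 732 to 1307 CPM with DT, without overlap (1.56 ± 0.35, edgeR adjusted p = 0.0762).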
